A study of Nothobranchius furzeri with 168 samples.

Results

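The genes described here are 150 genes of the turquoise killifish, Nothobranchius furzeri, that were abundant in brain and scarce in skin of 21-day-old fish. They were chosen from a table of 26739 genes by 2 values. The level L of a gene was the mean over libraries of log2(CPM + 1), where CPM is the gene's count per 1000000 counts of the library's total. In the 20 brain and 20 skin libraries of day 21, 1602 genes had an L at least 4 higher in brain than in skin, and the 150 of them with the highest brain L were kept.

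The study took brain and skin from the same fish and sequenced both, at several ages in the short-lived strain GRZ-D and in MZCS-0403 and MZM-0403, which live longer. It holds 168 libraries of 84 fish, each fish giving 1 library per tissue. GRZ-D males were sampled at days 21, 35, 49, 100 and 147 (8, 6, 6, 7 and 6 fish) and GRZ-D females at day 49 (3 fish). MZCS-0403 males were sampled at days 21, 39, 147 and 287 (6, 4, 3 and 2 fish) and females at days 147, 217 and 287 (1, 5 and 5 fish). MZM-0403 males were sampled at days 21, 35 and 287 (6, 5 and 6 fish) and females at day 147 (5 fish). The labels name no treatment and no altered gene in any group, so a group is defined by strain, sex and age alone. Strain and the ages sampled went together, since the latest age was day 147 in GRZ-D and day 287 in the other strains, and fish of 1 strain share a genetic background, so that a strain contrast concerns these stocks. The fish are separate animals by their numbers, and tanks, litters and dissection days are not given.

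The brain of this annual fish is a mixture of neurons, glia, vessel cells and blood cells. Genes that are high in brain and low in skin typically serve synaptic signalling, the neuronal cytoskeleton and myelin. In ageing vertebrate brains, synaptic and growth-related genes are known to decline while glial and inflammatory genes tend to increase. The IDs in the table carry no gene names, and 0 of 26739 matched the RefSeq gene table of the species, so none of these roles can be assigned to a member. Marker lists for neurons, glia, blood and epidermis could not be applied for the same reason. In whole tissue, fewer cells of a type and less RNA per cell cannot be told apart.

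Library totals ran between 18218500 and 41254700 counts in brain and between 12376400 and 36230200 in skin. Both libraries of 8 fish went against their tissue labels. Over 19390 genes that are not among the 150, the other 152 libraries correlated with the day 21 profile of their own tissue at r between 0.904 and 0.989 and with the other tissue at 0.411 to 0.646. The 16 libraries of the 8 fish correlated with their labelled tissue at 0.455 to 0.585 and with the other tissue at 0.953 to 0.981. These fish were all 6 GRZ-D males of day 49, 1 GRZ-D female of day 49 and 1 MZCS-0403 female of day 287 (replicate 7). They were left out of the comparisons, so that 76 libraries per tissue entered the fits, and counts with all 84 fish as labelled are given beside the results.

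At day 21, where the members were chosen, the mean level of a member in brain lay between 358 and 4481 CPM, with a median of 581. In skin the same members averaged between 0.731 and 132 CPM, with a median of 5.06. The brain minus skin difference of L ran between 4.12 and 8.71, with a median of 6.83. It was under 5 in 28 members, 5 to 6 in 21, 6 to 7 in 38, 7 to 8 in 48 and 8 or more in 15. A skin level of 10 CPM or more was seen in 51 members, so that a part of the list was low in skin relative to brain and not near 0 there. These values fixed the membership and are a description. The last members inside the abundance limit had a brain L of 8.48 and 8.47, and the first genes outside it 8.46 and 8.46. The members nearest the limit on the difference stood at 4.12, and the nearest abundant genes outside it at 3.98 and 3.88. With TMM-scaled CPM 122 of the 150 were kept. Applying the rule to GRZ-D, MZCS-0403 or MZM-0403 alone kept 141, 138 and 142 of the 150.

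The most abundant member was Nfu_g_1_013001, with a mean of 4481 CPM in brain and 129 CPM in skin at day 21. Nfu_g_1_001119 followed with 3159 CPM in brain and 85.4 CPM in skin. Nfu_g_1_008211 stood next, with 2408 CPM in brain and 69.0 CPM in skin. CPM takes no account of transcript length, so the order is one of reads and not of transcripts. The 3 leading members were also among the higher ones in skin.

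Together the 150 genes took between 9.46% and 12.98% of all counts in the 76 brain libraries, with a median of 11.4%. In the 76 skin libraries they took between 0.148% and 1.21%, with a median of 0.224%. No brain library of the 76 came near any skin library. The 8 libraries labelled brain from the fish at odds held 0.218% to 0.297%, and those labelled skin 10.3% to 11.6%. Within brain, the group medians differed little: they were 11.35%, 11.8%, 10.7% and 11.01% in GRZ-D males at days 21, 35, 100 and 147. They were 11.9%, 11.8%, 11.9% and 11.1% in MZCS-0403 males at days 21, 39, 147 and 287, and 11.8%, 11.8% and 11.2% in MZM-0403 males at days 21, 35 and 287. In GRZ-D males the 7 libraries of day 100 (10.2% to 11.2%) and the 6 of day 147 (10.6% to 11.1%) all lay below the 6 of day 35 (11.6% to 12.4%). In MZM-0403 males, days 287 (10.5% to 11.6%) and 35 (11.2% to 12.7%) overlapped.

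**Figure D1:**
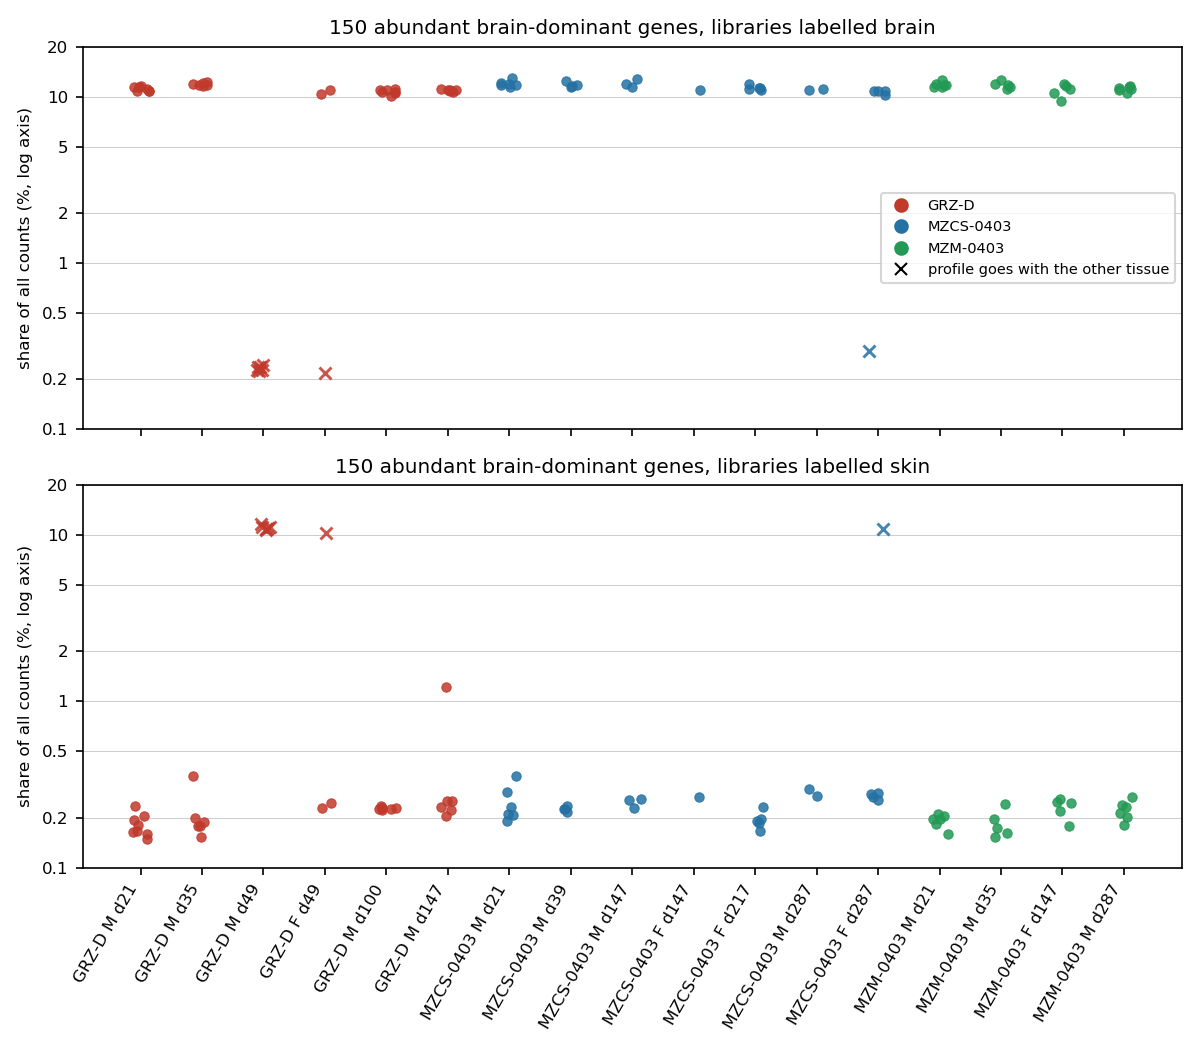
Share of all counts, in percent on a log axis, taken by the 150 genes in each library (points), by group, in libraries labelled brain and in libraries labelled skin. The 76 brain libraries lie between 9.46% and 12.98%, the libraries of the 8 fish at odds with their labels lie with the other tissue, and 1 skin library of GRZ-D males at day 147 stands out at 1.21%.

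Skin replicate 3 of the GRZ-D males at day 147 stood apart. It held 1.21% of its counts in the 150 genes, and the second highest skin library of the 76 held 0.354%. In this library 140 of the 150 members were above the other 5 fish of its group, a count not taken over all genes. The median ratio of a member to the median of those fish was 4.25. The median ratio was 3.68 over 1445 other genes that met the difference of 4 and whose median in those fish was above 0. It was 1.12 over the 17224 genes outside the list at a median of 1 CPM or more there. Its correlation with the brain profile was 0.534, against 0.426 to 0.457 in the other 5. GRZ-D day 35 skin replicate 2 was the next to stand out in its group, at 0.353% against 0.152% to 0.199% in the other 5. Whether brain RNA reached these libraries was not tested. The GRZ-D skin comparisons of age and strain below are given with and without them. The GRZ-D tests of brain against skin include them and were not repeated without them.

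In the groups that the rule did not use, of 1 to 7 kept fish, brain and skin levels of all 150 members were apart. The same count over all genes was not taken, and 1 fish per tissue leaves no room for overlap. The median brain minus skin difference of L lay between 6.13 (GRZ-D males, day 147) and 7.08 (MZM-0403 males, day 35). Without the brain and skin libraries of replicate 3 the day 147 value was 6.52. A difference of 4 or more was retained by 145 members at most (GRZ-D males, day 35) and by 132 at least (MZCS-0403 males, day 287). Over all genes, 4.78% to 5.79% reached 4 in these groups. The smallest difference of a member was 2.05, in MZCS-0403 males at day 147, so the members that dropped under 4 were still higher in brain.

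**Figure D2:**
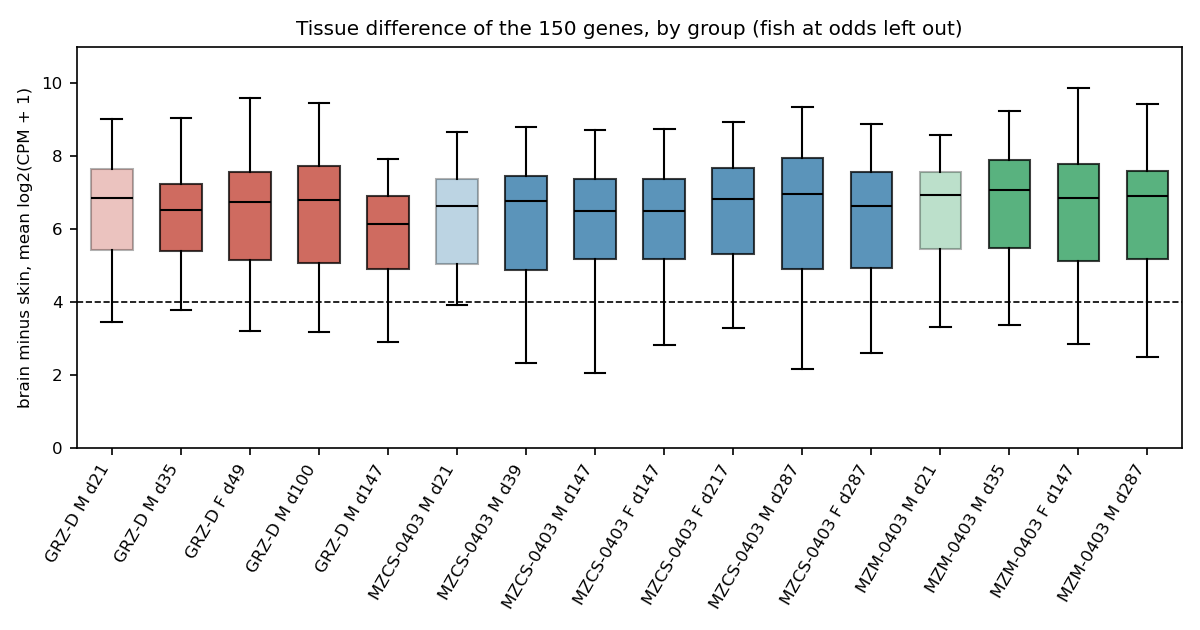
Brain minus skin difference of mean log2(CPM + 1) for each of the 150 genes, by group and without the fish at odds; the day 21 groups were used to choose the genes. Medians of the other groups lie between 6.13 and 7.08 and no gene falls under 2.05.

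With edgeR's quasi-likelihood test and Benjamini-Hochberg adjustment over all genes tested, at an adjusted p under 0.05, members called higher in brain than in skin numbered 150 in GRZ-D males at day 35, 150 in MZM-0403 males at day 287 and 150 in MZCS-0403 females at day 217. In GRZ-D males at day 147 the number was 147, and none of the 150 was called lower in any of these groups. The tissues differed in most genes: 87.2%, 82.8%, 80.3% and 77.8% of all genes tested were called in the same 4 comparisons, with 44.2%, 42.3%, 41.5% and 39.5% higher in brain. The median log2 fold change of the members was 5.20, 6.39, 6.13 and 5.05, against 0.03, 0.03, 0.06 and 0.02 over all genes. TMM scaling, which centres the genes of all libraries on each other, set this scale. With column totals alone the median of all genes was 1.38, 0.88, 1.16 and 0.76 in the same order, and that of the members 6.54, 7.24, 7.23 and 5.70. The members lay far above the median of all genes on either scaling.

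Across the brain groups the 150 genes varied slightly less than all genes by the medians. Over the 15 groups with 2 or more fish, the SD of a member's group means had a median of 0.256 on the log2 scale, against 0.271 over 18531 genes with a mean L of 1 or more. The distance between a member's highest and lowest group mean had a median of 0.846, against 0.913. It exceeded 1, a doubling, in 51 members and exceeded 2 in 3 members, counts not taken over all genes. Fish of 1 group had a median SD of 0.143 in members and 0.174 in all genes. Every member had counts in each of the 76 brain libraries, and the lowest value of any was 17.7 CPM. The lowest of the 15 groups was at day 100 or later in 97 members (64.67%), against 55.74% of all genes, and the highest in 64 members (42.67%), against 54.44%. Of the 97, 23 were in GRZ-D, 35 in MZCS-0403 and 39 in MZM-0403. The 39 are 26.0% of the members, against 21.34% of all genes, and the same share is not given for the other 2 strains. In the MZM-0403 females of day 147, brain replicate 1 had the lowest share of the 76 libraries (9.46%) and the highest correlation with the skin profile (0.646). It was below the other 4 fish in 109 members, a count not taken over all genes. Without this library the lowest group was at day 100 or later in 91 members (60.67%), against 55.18% of all genes. It was an MZM-0403 group of those ages in 32 members (21.33%), against 20.44% of all genes. The day 21 level chose the members, so these counts are a description.

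The steadiest members were Nfu_g_1_016838 and Nfu_g_1_005653, with an SD of group means of 0.104 and 0.109. Levels of named members per fish or group, here and below, are CPM scaled by TMM. Group medians of Nfu_g_1_016838 lay between 1988 CPM (GRZ-D males, day 100) and 2594 CPM (MZCS-0403 females, day 217). The members that varied most were Nfu_g_1_007990, with an SD of 1.64, and Nfu_g_1_020367.

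**Figure D3:**
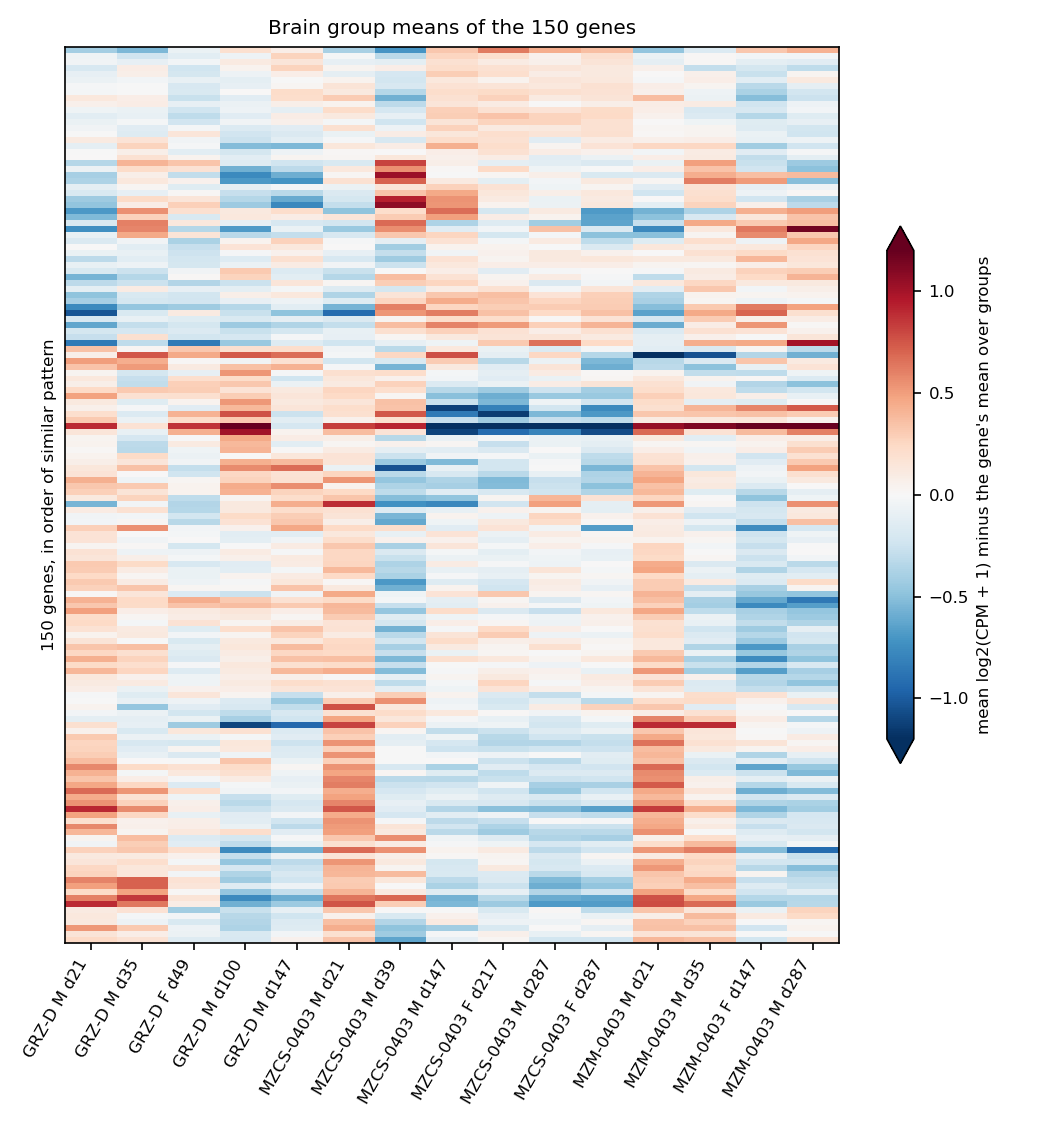
Brain group means of log2(CPM + 1) for the 150 genes, each given as the difference from the gene's mean over groups; rows are genes in order of similar pattern and columns are groups. Most genes stay within a narrow band, with a median SD of 0.256 across groups, and 1 row, Nfu_g_1_007990, is far lower in MZCS-0403 fish of day 147 and later.

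In brain, more members were called lower than higher at the later age in GRZ-D and MZM-0403 males. The reverse held in MZCS-0403 males. There the split of the calls rests on the fits without the fish at odds and without pairing by fish number. The median log2 fold change of the members there was 0.08 as reported, 0.09 with all 84 fish as labelled and 0.07 with pairing. Over all genes it was -0.03, -0.03 and -0.01 in the same order. The members were chosen for a high brain level at day 21, and such a choice can favour genes that fall later. How far it set these counts was not tested. In GRZ-D males at day 147 against day 35, 27 members were higher and 39 lower, which is 18.0% and 26.0% of the 150. Over all 23016 genes, 24.9% were called, 12.1% higher and 12.8% lower. At day 100 against day 35, 33 members (22%) were higher and 55 (36.7%) lower, against a background of 40.6%, with 19% higher and 21.6% lower. The median log2 fold changes were small, at -0.03 and -0.07, against 0.01 and -0.02 over all genes. The 2 GRZ-D comparisons share the day 35 fish.

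In MZM-0403 males at day 287 against day 35, 14 members (9.33%) were higher and 61 (40.7%) lower, in a background of 37.9%, with 17.1% higher and 20.8% lower. In MZCS-0403 males at day 147 against day 39, 47 members (31.3%) were higher and 29 (19.3%) lower, in a background of 40.1%, with 18.6% higher and 21.4% lower. The median was -0.14 in MZM-0403 and 0.08 in MZCS-0403, against -0.02 and -0.03 over all genes. In MZCS-0403 males the split was 2 higher and 5 lower with all 84 fish as labelled, against 47 and 29 without those at odds. In MZCS-0403 females at day 287 against day 217, 3 members were higher and 6 lower, in a background of 7.68%, with 3.56% higher and 4.11% lower. With all 84 fish as labelled, the members called in these 5 comparisons numbered 4, 13, 4, 7 and 0, in the order GRZ-D day 147, GRZ-D day 100, MZM-0403, MZCS-0403 males and MZCS-0403 females. Of the groups in these 5 comparisons, only the MZCS-0403 females of day 287 hold a fish at odds, but the fits share 1 estimate of the spread.

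The changes were mostly modest in size. Changes of at least 2-fold were called in 2 members in GRZ-D at day 147, in 7 at day 100, in 4 in MZM-0403, in 8 in MZCS-0403 males and in 0 in MZCS-0403 females. Of all genes, 3.66%, 8.1%, 9%, 13.7% and 2.07% passed the same limit in that order. The levels of day 35 or 39 against day 21 are given without a test, since the day 21 level chose the members and a choice by high values favours a later fall. The median member then stood at -0.06 in GRZ-D, -0.06 in MZM-0403 and -0.28 in MZCS-0403, against 0.02, 0.04 and 0.07 over all genes.

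**Figure D4:**
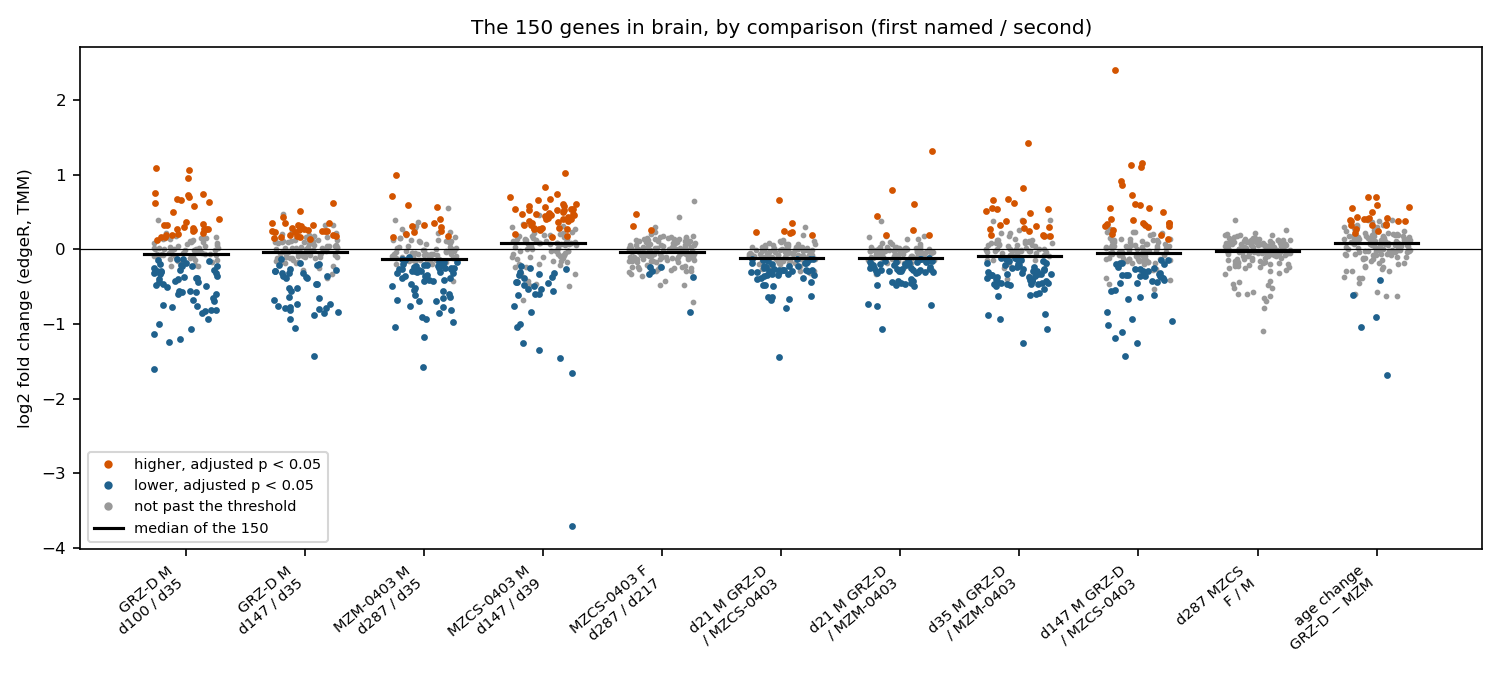
Log2 fold changes (edgeR, TMM) of the 150 genes in brain, 1 point per gene, for each comparison of age, strain or sex (first named group over the second) and for the difference of 2 age changes; colours mark adjusted p under 0.05 and bars the median of the 150. Medians lie between -0.14 and 0.09, and 2 points for Nfu_g_1_007990 lie far out, at -3.71 and 2.41.

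The age comparisons of the 3 strains use separate fish. In GRZ-D (day 147) and MZM-0403 (day 287), 40 members were called in both, 60.6% of the GRZ-D calls and 53.3% of the MZM-0403 calls, with 6 higher in both, 30 lower in both and 4 in opposite directions. The direction was shared by 90% of these members, against 95.1% of the 3368 genes called in both over the whole table. GRZ-D and MZCS-0403 shared 35 (53.0% and 46.1% of the calls), of which 14 were higher, 15 lower and 6 opposite, 82.9% in 1 direction against 87.3% of 2889 genes. MZM-0403 and MZCS-0403 shared 36 (48% and 47.4%), of which 5 were higher, 17 lower and 14 opposite, 61.1% in 1 direction against 71.9% of 3804 genes. Over all genes, these 3368, 2889 and 3804 shared genes came out of 5723 called in GRZ-D, 8721 in MZM-0403 and 9219 in MZCS-0403. In all 3 strains, 19 members (12.7%) were called, against 7.93% of all genes. Of the members, 3 were higher and 12 lower throughout, and 25 were called in none, counts not taken over all genes. The share with 1 direction in 2 strains was thus no higher in the members than over all genes. The members are abundant and vary less within groups than all genes (median SD 0.143 against 0.174), which eases a call. The shares called were not adjusted for this.

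Nfu_g_1_015015 fell most evenly. In GRZ-D brain its lowest, median and highest values were 149, 159.6 and 171 CPM at day 147, against 312, 324 and 355 CPM at day 35. In MZM-0403 brain they were 157, 179 and 190.5 CPM at day 287, against 334, 458, 262, 389.9 and 387 CPM in the 5 fish of day 35. In MZCS-0403 brain the 3 fish of day 147 had 149.9, 138 and 173 CPM, against 373, 228, 245 and 251 CPM in the 4 of day 39. Older fish were below all younger ones in each strain. The log2 fold change was -1.06 ± 0.094 (SE) in GRZ-D, -1.04 ± 0.097 in MZM-0403 and -0.84 ± 0.13 in MZCS-0403, with adjusted p of 5.2e-14, 5.8e-13 and 1.1e-07 in edgeR's quasi-likelihood test. The same gene stood at 134 to 158 CPM in GRZ-D at day 100, and its median was 159 and 138 CPM in MZCS-0403 females of days 217 and 287.

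Nfu_g_1_009071 was lower in older fish as well. Its brain values were 276, 288 and 364 CPM (lowest, median and highest) in GRZ-D at day 147, against 462, 566 and 684 CPM at day 35. In MZM-0403 they were 222, 242 and 299 CPM at day 287, against 857, 752, 576, 561 and 948 CPM at day 35. The groups did not overlap in either strain. The log2 fold changes were -0.88 ± 0.15 and -1.57 ± 0.16, with adjusted p of 8.7e-06 and 1.2e-11 in edgeR's quasi-likelihood test. In MZCS-0403 at day 147 the change was -0.50 ± 0.20, with an adjusted p of 0.0437.

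Nfu_g_1_008211, already among the most abundant members, rose. In GRZ-D brain it had 3244, 3291 and 3429 CPM at day 147, against 2001, 2144 and 2313 CPM at day 35. In MZM-0403 it had 3585, 4473 and 4863 CPM at day 287, against 3403, 2794, 3046, 2840 and 2658 CPM at day 35. In MZCS-0403 it had 3993, 4004 and 4154 CPM at day 147, against 1656, 2013, 2374 and 1903 CPM at day 39. Every older fish was above every younger one within its strain. The log2 fold changes were 0.63 ± 0.08, 0.57 ± 0.09 and 1.03 ± 0.11, with adjusted p of 1.1e-08, 3.6e-07 and 7.3e-12 in edgeR's quasi-likelihood test.

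Nfu_g_1_021376 rose less. It had 414, 475 and 528 CPM in GRZ-D brain at day 147, against 357, 371 and 397 CPM at day 35. It had 414, 446 and 457 CPM in MZM-0403 brain at day 287, against 320.5, 325, 408, 334 and 329.9 CPM at day 35. Older fish lay above younger ones in both strains, and 1 MZM-0403 fish of day 35, replicate 7, came close to the older ones. The log2 fold change was 0.35 ± 0.066 in GRZ-D and 0.35 ± 0.070 in MZM-0403, with adjusted p of 4.1e-05 and 4.8e-05 in edgeR's quasi-likelihood test.

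Group means of the kept brain libraries, which include those tested above, are described without a test. The same choice of members by their day 21 level applies to them. All 8 brain groups of day 100 or later lay below all 3 groups of day 35 or 39 in 17 members (11.33%), against 3.58% of 18531 genes, and above them in 2 members (1.33%), against 1.87%. Without MZM-0403 female replicate 1 the counts were 17 and 2 as well. Nfu_g_1_008211 was 1 of the 2 above, and Nfu_g_1_015015 and Nfu_g_1_009071 were among the 17.

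Between strains at days 35 and 147, more members were called lower than higher in GRZ-D brain. At day 147 the share called, 44.0%, was near the 43.4% of all genes. The day 21 comparisons use the brain libraries whose mean level chose the members, 8 of the 20 from GRZ-D, so their counts are a description from which nothing is read. At day 21, 7 members (4.67%) were higher and 48 (32.0%) lower in GRZ-D than in MZCS-0403 males, in a background of 34.2%, with 17.2% higher and 17% lower. Set against MZM-0403 males of day 21, 7 were higher and 52 (34.7%) lower, in a background of 35%, with 17.6% higher and 17.4% lower.

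At day 35, 22 members (14.7%) were higher and 59 (39.3%) lower in GRZ-D than in MZM-0403 males, in a background of 47.3%, with 22.3% higher and 24.9% lower. With column totals in place of TMM the split was 32 higher and 42 lower. At day 147, 26 members (17.3%) were higher and 40 (26.7%) lower in GRZ-D than in MZCS-0403 males, in a background of 43.4%, with 22.2% higher and 21.2% lower. With column totals the day 147 split was 29 higher and 34 lower. With all 84 fish as labelled, 2, 1, 5 and 8 members were called in these 4 strain comparisons. At least 2-fold differences were called in 1 member (background 9.52%) and 2 members (9.58%) at day 21, in 3 (14%) at day 35 and in 9 (14.6%) at day 147. Between day 35 (against MZM-0403) and day 147 (against MZCS-0403), 44 were called in both (54.3% and 66.7% of the calls), 9 higher, 30 lower and 5 opposite. Over all genes 5606 were called in both, out of 10880 called at day 35 and 9999 at day 147. Of the 5606, 80.3% were in 1 direction. The 2 comparisons use separate fish and different partner strains.

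Nfu_g_1_015816 was lower in GRZ-D at days 35 and 147. At day 35 it had 301, 356 and 361 CPM (lowest, median and highest) in GRZ-D, against 764, 833, 641, 656 and 748 CPM in MZM-0403. At day 147 it had 162, 199 and 209.5 CPM in GRZ-D, against 354, 454 and 307 CPM in MZCS-0403. No GRZ-D fish reached the lowest fish of the other strain. The log2 fold changes were -1.07 ± 0.12 and -0.93 ± 0.14, with adjusted p of 2.4e-11 and 5.4e-08 in edgeR's quasi-likelihood test. At day 21, given without a test, its medians were 420.3 CPM in GRZ-D, 688 CPM in MZCS-0403 and 726 CPM in MZM-0403. This gene also fell with age, by 0.84 in GRZ-D and by 0.93 in MZM-0403 on the log2 scale.

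Nfu_g_1_012286 was also lower in GRZ-D, with 681, 739 and 888 CPM at day 35 against 1362, 1082, 2831, 925 and 805 CPM in MZM-0403. At day 147 it had 463, 611 and 851 CPM in GRZ-D, against 1220.3, 2072 and 1029 CPM in MZCS-0403. The groups overlapped at day 35 and were apart at day 147. The log2 fold changes were -0.87 ± 0.20 and -1.18 ± 0.22, with adjusted p of 2.0e-04 and 1.4e-05 in edgeR's quasi-likelihood test. MZM-0403 replicate 7 was the highest at day 35, and without it the change was -0.45 with an adjusted p of 0.0296.

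Nfu_g_1_006694 was higher in GRZ-D, with 318, 324 and 348 CPM at day 35 against 215, 206, 309, 190.2 and 211 CPM in MZM-0403. At day 147 it had 337, 354 and 369 CPM in GRZ-D, against 292, 236 and 278 CPM in MZCS-0403. The strains did not overlap at either age. The log2 fold changes were 0.54 ± 0.07 and 0.39 ± 0.08, with adjusted p of 3.7e-09 and 1.0e-04 in edgeR's quasi-likelihood test. At day 21, given without a test, its medians were 355 CPM in GRZ-D, 389 CPM in MZCS-0403 and 348 CPM in MZM-0403. Nfu_g_1_010932 was called higher in GRZ-D as well, at 0.66 ± 0.18 at day 35 and 0.56 ± 0.21 at day 147, with adjusted p of 0.0018 and 0.0273 in that test. Its day 147 call was lost without MZCS-0403 replicate 1, at an adjusted p of 0.107.

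Of the 3 most abundant members, 1 differed by at least 2-fold between strains at day 147. Nfu_g_1_013001 had 2334, 2892 and 3635 CPM in GRZ-D at day 147, against 5159, 9643 and 3718 CPM in MZCS-0403. No GRZ-D fish reached the lowest of them, and the log2 change was -1.10 ± 0.20 with an adjusted p of 4.4e-06 in edgeR's quasi-likelihood test. How far this change rests on MZCS-0403 replicate 3, the fish with 9643 CPM, is not given here. The gene fell with age in GRZ-D, by 0.79 ± 0.17 on the log2 scale. In MZM-0403 its age change was -0.56, with an adjusted p of 0.0077 in that test, called under 15 of 18 other settings. Under those settings the change ran between -0.70 and -0.30. At day 35, MZM-0403 replicate 7 had 8978 CPM of this gene, against 5396, 4665, 3186 and 4909 CPM in the other fish. In MZCS-0403 males the age change was 0.46 and was not called. Nfu_g_1_020367, the second most variable member, was higher in GRZ-D than in MZM-0403 at day 35, at 1.42 ± 0.35, with an adjusted p of 6.6e-04 in the same test. Its MZM-0403 values at day 35 spread between 411 and 2478 CPM, and all lay under the GRZ-D lowest of 3013 CPM.

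The age change itself was compared between GRZ-D (day 147 against day 35) and MZM-0403 (day 287 against day 35) by an interaction term, the 2 spans being unequal. It was more positive in GRZ-D in 22 members (14.7%) and more negative in 5 (3.33%), in a background of 10.5%, with 6.44% more positive and 4.11% more negative. A difference of at least 2-fold was called in 2 members, against 2.97% of all genes. The median difference was 0.09, against 0.01 over all genes. With all 84 fish as labelled, 0 members were called.

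Nfu_g_1_007538 moved in opposite directions. In GRZ-D brain it had 667, 817 and 933 CPM at day 147, against 1062, 1182 and 1784 CPM at day 35. In MZM-0403 it had 1649.8, 1995 and 2519 CPM at day 287, against 943, 1432, 819, 761 and 999 CPM at day 35. Older GRZ-D fish lay below all younger ones and older MZM-0403 fish above all younger ones. The changes were -0.68 ± 0.22 and 1.0001 ± 0.23, and their difference -1.68 ± 0.32, with an adjusted p of 2.9e-04 for the difference in edgeR's quasi-likelihood test. The GRZ-D change alone had an adjusted p of 0.0162, which was 0.0636 without day 35 replicate 6.

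Nfu_g_1_002749 also moved in opposite directions, by less. It had 295, 310.4 and 321 CPM in GRZ-D at day 147, against 244, 265 and 274 CPM at day 35, and 235, 238 and 247 CPM in MZM-0403 at day 287, against 377, 337, 348, 286 and 298.5 CPM at day 35. The older fish were above the younger ones in GRZ-D and below them in MZM-0403, without overlap. The difference of the changes was 0.70 ± 0.11, with an adjusted p of 4.8e-06 in edgeR's quasi-likelihood test. For Nfu_g_1_009071 the difference was 0.70 ± 0.22 and for Nfu_g_1_005244 it was -1.04 ± 0.34, with adjusted p of 0.0293 and 0.0359 in that test. The call of Nfu_g_1_009071 was kept under 23 of 29 other settings and was lost without MZM-0403 day 35 replicate 13, among others, at an adjusted p of 0.0781. That of Nfu_g_1_005244 was kept under 20 of 29 and was lost without replicate 7, at 0.0934.

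The member with the widest range in brain was Nfu_g_1_007990, and the difference lay in MZCS-0403. In MZCS-0403 males it had 81.0, 50.3 and 28.4 CPM in the 3 fish of day 147, against 273, 695, 1082 and 735 CPM in the 4 of day 39. The 2 males of day 287 had 84.2 and 168 CPM, and females had 17.7 to 56.4 CPM at day 217 and 45.1 to 77.0 CPM at day 287. No MZCS-0403 fish of day 147 or later reached the lowest fish of day 39. The log2 fold change of day 147 over day 39 was -3.71 ± 0.39, with an adjusted p of 7.4e-12 in edgeR's quasi-likelihood test.

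Late fish of the other strains stood higher in Nfu_g_1_007990. In GRZ-D males it had 298, 357 and 476 CPM at day 35, 562, 765 and 919.8 CPM at day 100 and 248, 284 and 312 CPM at day 147. Day 100 lay above both other ages without overlap, with a log2 fold change of 1.06 ± 0.25 over day 35 (adjusted p of 3.0e-04 in edgeR's quasi-likelihood test), while day 147 over day 35 was -0.39 and was not called. In MZM-0403 males it had 896, 1040.4 and 1104 CPM at day 287, against 921, 1062, 176, 1166 and 1094 CPM at day 35, with replicate 7 far below the other 4. GRZ-D was above MZCS-0403 at day 147 by 2.41 ± 0.35 on the log2 scale (adjusted p of 6.2e-08) and below MZM-0403 at day 35, at -1.26 ± 0.26 (adjusted p of 5.9e-05), both in edgeR's quasi-likelihood test. A milder version of the MZCS-0403 difference was seen in Nfu_g_1_010289, singled out after its values were seen, at -1.35 ± 0.24 for day 147 over day 39 and 1.11 ± 0.22 for GRZ-D over MZCS-0403 at day 147. Over the group means, all 4 MZCS-0403 groups of day 147 or later with 2 or more fish lay below the other 11 groups in 8 members (5.33%), against 8.43% of all genes, so that the pattern was no commoner in the list than elsewhere.

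**Figure D5:**
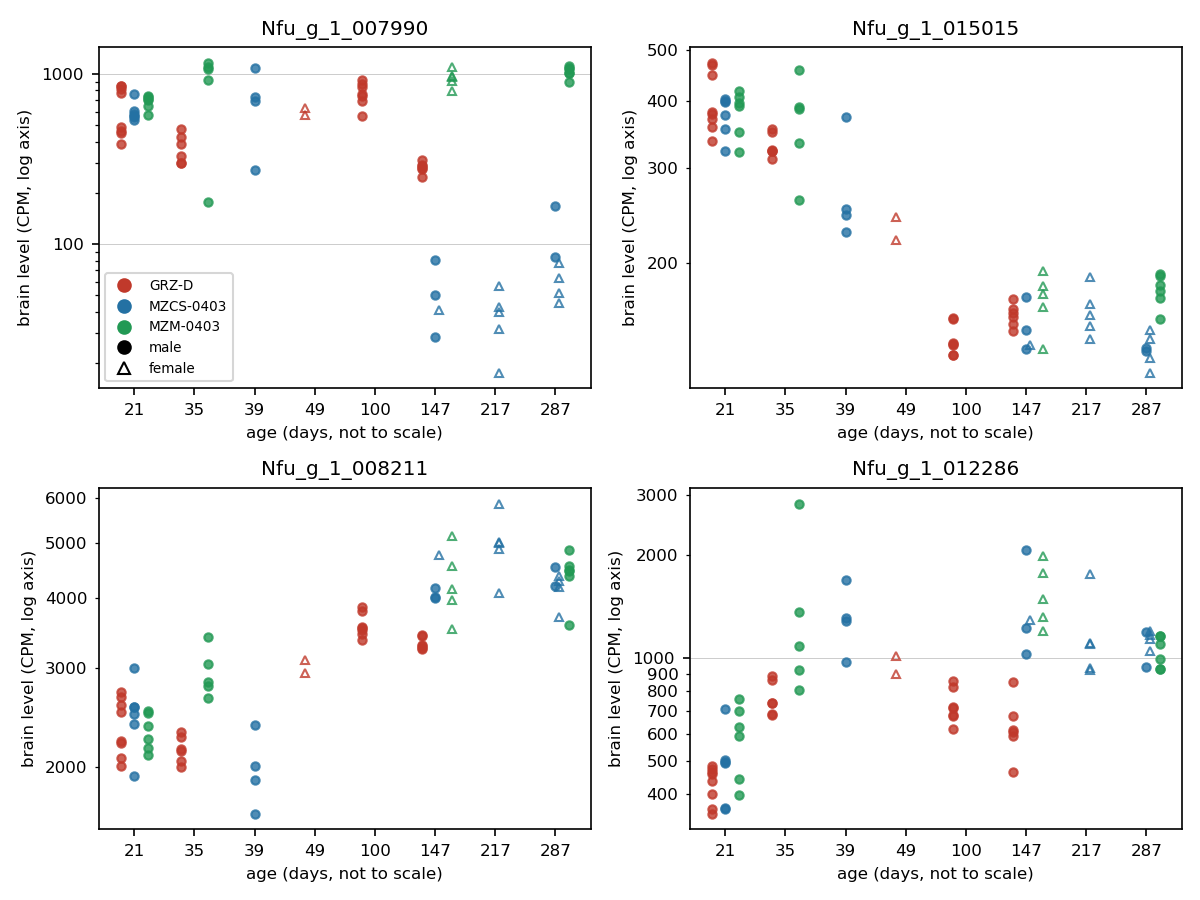
Brain level in TMM-scaled CPM (log axis) of 4 members by age in days, 1 point per fish, coloured by strain. Nfu_g_1_015015 is at 134 to 190.5 CPM in the later male groups that were tested, and Nfu_g_1_008211 is higher in older fish. Nfu_g_1_012286 is lower in GRZ-D than in MZCS-0403 males at day 147, and Nfu_g_1_007990 drops to 28.4 to 81.0 CPM in MZCS-0403 males of day 147.

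Sex was compared in MZCS-0403 at day 287, between 4 females and 2 males. At day 147 MZCS-0403 has 1 female beside 3 males, and this pair was not tested. In edgeR's quasi-likelihood test 0 members were called, and DESeq2 also called 0. Over all genes, 0.452% were called at the same adjusted p, and 0.33% at 2-fold or more. An unadjusted p under 0.05 was seen in 15 members, a count not taken over all genes, so nothing is read from it. The median log2 fold change of females over males was -0.02, and with replicate 7 kept as labelled it was -0.32, again with 0 called. In GRZ-D the sexes met only at day 49, where all males are at odds with their labels.

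In skin the members are at low levels, and single libraries set part of what was called. In GRZ-D males at day 147 against day 35, 25 members (16.7%) were higher and 28 (18.7%) lower, in a background of 51.5%, with 29.3% higher and 22.2% lower. Without day 147 replicate 3 there were 12 higher and 55 lower, without day 35 replicate 2 there were 42 higher and 18 lower, and without both 12 and 31. With column totals in place of TMM the split was 69 higher and 10 lower, while the median of all genes moved to 0.65, against 0.11 with TMM. No direction of the list as a whole was therefore stable in this comparison.

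In MZM-0403 skin at day 287 against day 35, 25 members (16.7%) were higher and 16 (10.7%) lower, in a background of 43.7%, with 18.9% higher and 24.8% lower. Without day 35 replicate 4 the split was 44 and 10, and without day 287 replicate 6 it was 21 and 26. In MZCS-0403 skin at day 147 against day 39, 9 members (6.0%) were higher and 22 (14.7%) lower, in a background of 37.5%, with 18.5% higher and 19% lower. With column totals the split was 13 and 14. With all fish as labelled, 24, 13 and 7 members were called in GRZ-D, MZM-0403 and MZCS-0403 skin.

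Skin of GRZ-D at day 35 was higher than that of MZM-0403 in most members called, with 84 (56.0%) higher and 6 (4.0%) lower, in a background of 38.3%, of which 15.2% higher and 23% lower. The median log2 fold change was 0.93, against -0.09 over all genes. Without GRZ-D replicate 2, the library with the raised share, 54 were higher and 11 lower and the median was 0.51. With column totals 61 were higher and 13 lower, with a median of 0.67 against -0.33 over all genes. With all fish as labelled 26 were called. In brain at the same age, the members called were mostly lower in GRZ-D.

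Nfu_g_1_015015 fell in skin as it did in brain. It had 1.90, 3.65 and 11.4 CPM in GRZ-D skin at day 147, against 16.0, 18.9 and 19.9 CPM at day 35. In MZM-0403 skin it had 4.71, 6.94 and 11.3 CPM at day 287, against 31.1, 18.5, 11.2, 30.2 and 24.3 CPM at day 35. In MZCS-0403 skin it had 4.78, 3.45 and 7.92 CPM at day 147, against 19.8, 16.1, 19.6 and 16.7 CPM at day 39. Older and younger fish were apart in GRZ-D and MZCS-0403 and touched at 1 fish in MZM-0403. The log2 fold changes were -1.91 ± 0.27, -1.68 ± 0.27 and -1.73 ± 0.36, with adjusted p of 2.4e-08, 1.1e-06 and 1.1e-04 in edgeR's quasi-likelihood test. Without the 2 GRZ-D libraries that stood out the GRZ-D value was -1.88.

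Nfu_g_1_008211 was higher in older skin too. It had 62.6, 129.5 and 197 CPM in MZM-0403 skin at day 287, against 17.6, 34.0, 40.8, 19.8 and 19.4 CPM at day 35, without overlap, at 2.25 ± 0.39 and an adjusted p of 3.1e-06 in edgeR's quasi-likelihood test. In GRZ-D it had 90.6, 110.5 and 420 CPM at day 147, against 52.0, 72.7 and 84.5 CPM at day 35, the 420 CPM being replicate 3. The change there was 1.16 ± 0.35 with an adjusted p of 0.0041, and without the 2 skin libraries that stood out it was 0.62 with an adjusted p of 0.142. Nfu_g_1_014070 was called higher at 1.81 ± 0.39 in GRZ-D and 1.24 ± 0.42 in MZM-0403, with adjusted p of 9.2e-05 and 0.0123 in that test. It had 4.25, 21.4 and 64.6 CPM in GRZ-D skin at day 147, against 3.18, 3.89 and 20.9 CPM at day 35, with the highest value of either age in the libraries that stood out. Its GRZ-D change was 1.19 without day 147 replicate 3, 2.59 without day 35 replicate 2 and 1.98 without both, called each time.

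Nfu_g_1_018671 shows how far 1 library can carry a skin value. In MZM-0403 it had 0.892, 1.84 and 5.89 CPM at day 287, against 4.03, 103, 6.22, 2.90 and 2.53 CPM at day 35, and its log2 fold change was -3.34 ± 0.60. Without replicate 4, the fish with 103 CPM, the change was -0.73 with an adjusted p of 0.217 in edgeR's quasi-likelihood test. In GRZ-D skin its change was -1.79 ± 0.56 with an adjusted p of 0.0058, and without day 35 replicate 2 the adjusted p was 0.0927. In brain the same gene fell in GRZ-D, at -0.73 ± 0.07, and in MZM-0403, at -0.85 ± 0.07, and its groups did not overlap.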

How the data were processed

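The deposited table holds counts per gene for 168 libraries, and per the labels' protocols RNA was taken with an RNeasy kit and libraries were made with TruSeq RNA v2. Per the submitters' processing notes, bcl2fastq 1.8.4, STAR 2.5.1b and featureCounts 1.5.0 were used. The genome build, annotation and strand setting are not given in the sources used here. The members and the lists were chosen with earlier results of these data known. CPM used column totals, except in the levels of named members per fish or group, which were scaled by TMM. The TMM factors ran between 0.907 and 1.034 in brain and between 0.662 and 1.378 in skin. Tests used edgeR 4.0.16 in R 4.3.3: quasi-likelihood with TMM and filterByExpr (minimum count 10), which kept 23016 genes in brain and 23157 in skin, 1 fit per tissue over 76 libraries, with a fit of the 2 groups compared for brain against skin, and Benjamini-Hochberg adjustment over all genes at 0.05. Fish at odds with their tissue labels were left out. The fit was checked on simulated counts. Genes were named by rules: the 3 most abundant, the strongest 2 per direction called in 2 age, strain, interaction or skin comparisons, and the 2 most and least variable. The alternatives were all 84 fish, only the groups compared, RLE factors, DESeq2 1.42.0, no filter, an adjusted p under 0.01, each library left out and the replicate block. Column totals and leaving out 2 skin libraries were added after the data were seen. In all, 752 genes had no count. Same-numbered fish of different groups did not deviate together throughout, since the correlation of deviations exceeded 0.1 in every pair of no such comparison. It exceeded 0.1 in 3 of 6 pairs of GRZ-D and MZCS-0403 brain at day 21, at most at 0.34. In GRZ-D skin of days 147 and 35 it did so in 2 of 6 pairs, at most at 0.339. Brain and skin of 1 fish are paired by design. Biological variation, as edgeR estimates it, was 0.222 in brain and 0.322 in skin.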

Additional observations from a re-analysis of the deposited data

Results flagged for a closer look

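Shares of counts taken by the 150 genes were far from the rest of the group in 4 libraries of 26 groups of 4 to 10 fish examined. The MZCS-0403 female of day 287 numbered 7, 1 of the fish at odds with its labels, held 0.297% in the library labelled brain, against 10.3% to 10.9% in the other 4, and 10.9% in that labelled skin, against 0.254% to 0.282%. Skin replicate 3 of the GRZ-D males at day 147 held 1.21%, against 0.205% to 0.253%, and skin replicate 2 at day 35 held 0.353%, against 0.152% to 0.199%. The libraries labelled skin of the fish at odds, which enter no comparison, held at least 10.3% of their counts in these genes, above every skin library that was kept. Over shares and named members 116 groups were examined, and chance sets apart about 1 group in 20.

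Named members in brain were set apart mainly in MZM-0403 replicate 7 of day 35: Nfu_g_1_021376 had 408 CPM against 320 to 334, Nfu_g_1_006694 309 CPM against 190 to 215, Nfu_g_1_012286 2831 CPM against 805 to 1362, and Nfu_g_1_007990 176 CPM against 921 to 1166. In MZM-0403 males at day 287, Nfu_g_1_009071 had 299 CPM in replicate 5 against 222 to 250.3, Nfu_g_1_016838 had 1962 CPM in replicate 3 against 2344 to 2567, and Nfu_g_1_020367 had 3562 CPM in replicate 2 against 967 to 1597. In GRZ-D replicate 3 of day 35, Nfu_g_1_015816 had 301 CPM against 346 to 361.

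In skin, GRZ-D replicate 3 of day 147 had 64.6 CPM of Nfu_g_1_014070 against 4.25 to 26.3, 420 CPM of Nfu_g_1_008211 against 90.6 to 125, and 8.04 CPM of Nfu_g_1_018671 against 1.71 to 3.40. GRZ-D replicate 2 of day 35 had 20.9 CPM of Nfu_g_1_014070 against 3.18 to 5.10 and 35.0 CPM of Nfu_g_1_018671 against 5.56 to 9.71. MZM-0403 replicate 4 of day 35 had 103 CPM of Nfu_g_1_018671 against 2.53 to 6.22. The age change differed between GRZ-D and MZM-0403 in 27 members, with log2 differences of 0.70 in Nfu_g_1_002749, 0.70 in Nfu_g_1_009071, -1.68 in Nfu_g_1_007538 and -1.04 in Nfu_g_1_005244.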

How the results depend on the processing

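Depth limits skin more than brain, since a median member stood at 5.06 CPM there. Of 138 counts of members called under other settings, 111 stayed within 1.5 times the reported count, as did all 175 with 1 library left out. The cause of the 27 that moved was not tested. These counts are totals of both directions, and the split could turn within the limit. In GRZ-D skin 25 higher and 28 lower became 12 and 55 without day 147 replicate 3. In MZM-0403 skin 25 and 16 became 21 and 26 without day 287 replicate 6. With all 84 fish as labelled the counts were 13 (GRZ-D day 100), 4 (GRZ-D day 147), 4 (MZM-0403), 7 and 0 (MZCS-0403 males and females), 2 and 1 (GRZ-D against MZCS-0403 and MZM-0403, day 21), 5 (day 35), 8 (day 147) and 0 (interaction) in brain, and 24, 13, 7 and 26 in skin (GRZ-D, MZM-0403, MZCS-0403, and GRZ-D against MZM-0403). With only the groups compared they were 49 (MZM-0403) and 37 (MZCS-0403) in brain and 33 in GRZ-D skin. Same-numbered fish were not shown to be paired; with the replicate block 7 (MZM-0403), 3 (1 higher, 2 lower) and 0 (MZCS-0403 males and females) and 41 (GRZ-D against MZM-0403, day 35) were called in brain, and 27, 0 and 0 in skin (GRZ-D, MZM-0403, and GRZ-D against MZM-0403). The block fit kept only fish whose number occurred in both groups. That left 2 pairs in the MZM-0403 age comparisons and in GRZ-D against MZM-0403 at day 35, in both tissues. It left 3 pairs in MZCS-0403 brain, for males and for females, and 6 in GRZ-D skin. The effect of the block and that of fewer fish cannot be told apart. In this fit several named members lost the call in edgeR's quasi-likelihood test. Among them were the brain age changes of Nfu_g_1_008211 and Nfu_g_1_007538 in MZM-0403, at adjusted p of 0.327 and 0.131. That of Nfu_g_1_007990 in MZCS-0403 stood at 0.0568. The day 35 brain strain difference of Nfu_g_1_010932 stood at 0.335, and the MZM-0403 skin change of Nfu_g_1_015015 at 0.127. Others kept the call, such as Nfu_g_1_015015 in MZM-0403 brain, at 0.0368. Between brain and skin of the same fish the block called 150 in each of 4 groups. At an adjusted p under 0.01, 33 (GRZ-D against MZM-0403, day 21), 26 (MZM-0403 skin) and 19 (MZCS-0403 skin) were called.

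With 1 library left out, brain counts ranged over 83 to 89 (GRZ-D day 100), 60 to 65 (day 147), 64 to 76 (MZM-0403), 64 to 82 and 7 to 9 (MZCS-0403 males and females), 45 to 57 and 42 to 60 (GRZ-D against MZCS-0403 and MZM-0403, day 21), 66 to 88 (day 35), 47 to 67 (day 147), 24 to 31 (interaction) and 0 to 0 (sex). Skin counts ranged over 51 to 67 (GRZ-D), 38 to 54 (MZM-0403), 22 to 28 (MZCS-0403) and 65 to 98 (GRZ-D against MZM-0403). Of 439 log2 fold changes of named members under other settings, 373 kept direction and call, 54 lost the call, 7 gained one and 5 changed sign without being called in either fit; with 1 library left out the numbers were 600 of 634, 25, 1 and 8. The values that changed sign were near 0 in the reported fit or rested on 1 fish: Nfu_g_1_013001 in MZCS-0403 (0.46, and -0.02 without day 147 replicate 3), Nfu_g_1_007990 in MZM-0403 (0.22, and -0.05 without day 35 replicate 7), Nfu_g_1_020367 in MZM-0403 (0.31, and -0.07 without day 287 replicate 2) and in MZCS-0403 (0.27, and -0.04 without day 39 replicate 6), and Nfu_g_1_005653. No called value changed sign.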

Other observations

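Across all 150 members, not the named ones alone, the value of 1 library was far from the rest of its group in 104 members for skin replicate 3 of the GRZ-D males at day 147, in 81 for skin replicate 2 at day 35, in 54 for skin replicate 6 of the MZM-0403 males at day 287 and in 43 for skin replicate 8 of the GRZ-D males at day 21, against a median of 1 member per library in each tissue. The day 21 library is among those that chose the members. In brain the highest count was 27 members, in replicate 7 of the MZM-0403 males at day 35, where 17 were high and 10 low. None of these counts was taken over all genes.

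In no member were the GRZ-D groups above the groups of the other strains at all ages, against 4.27% of 18531 genes, and in 1 member (0.67%) they were below, against 2.11%. That member was Nfu_g_1_010608, named here after its values were seen, with log2 fold changes of -0.46 ± 0.07 at day 35 against MZM-0403 and -0.54 ± 0.08 at day 147 against MZCS-0403.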
